A study of Homo sapiens with 15 samples.

Results

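Tight junctions seal the space between neighbouring epithelial cells near their apical side. Claudins are the membrane proteins that form the strands of the seal and set which ions and solutes pass, occludin (OCLN) is a further strand protein, and F11R (JAM-A) is an adhesion protein of the immunoglobulin family that recruits polarity proteins to the contact. On the cytoplasmic side, the scaffolds TJP1 (ZO-1) and CGN (cingulin) link the strands to actin and myosin. In the airway, this seal separates inhaled material from the tissue beneath, and its protein content is one of the traits that distinguish epithelial from mesenchymal cells.

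The 9 genes described here, CLDN1, CLDN4, CLDN7, CLDN11, CLDN12, OCLN, F11R, TJP1 and CGN, were taken by their Entrez identifiers from a table of 28395 genes. All 9 passed the filter on low counts, as did 16740 genes in all. The cells were BEAS-2B, an established, immortalised human bronchial epithelial line, grown in a medium with fetal bovine serum. Exposed cells received 50 µg/mL of PET-NPLs, nanoplastics made by degrading polyethylene terephthalate bottles, in medium renewed every few days, and controls were unexposed cells of matched passage. Total RNA depleted of ribosomal RNA was sequenced after 24 h (2 control and 2 exposed libraries), 15 weeks (2 and 2) and 30 weeks (3 and 4), giving 15 libraries with 23143202 to 31459990 counts each. The labels put the 24 h and 15-week libraries in batch 1 and the 30-week libraries in batch 2, so time and batch cannot be told apart in any 30-week against 15-week comparison. They do not say that replicates came from separate cultures, and p-values therefore measure only the spread between these libraries.

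The labelled cell type was only partly borne out by its markers. The epithelial adhesion genes CDH1 and EPCAM stayed below 1 CPM (counts scaled to library size, with libraries normalised by trimmed mean of M-values) in all 15 libraries, whereas the simple-epithelial keratin gene KRT18 lay between 179 and 383 CPM and KRT8 between 127 and 710 CPM. KRT7, a further simple-epithelial keratin gene, had 1215 to 1414 CPM at 24 h and 1.25 to 3.29 CPM at 30 weeks, and KRT19 had 0.358 to 12.1 CPM over all libraries. The basal cell genes KRT5, KRT14 and TP63 had at most 12 counts in any library. In the 30-week controls, the skeletal muscle markers summed to 310 to 399 CPM, against 17.2 to 42.9 CPM over all other libraries. A list of 6 abundant small noncoding RNAs, RN7SL1 among them, took 22.3% to 31.03% of the counts in the 30-week controls, 17.04% to 21.5% in the 30-week exposed libraries and 9.75% to 12.9% earlier. Endothelial markers summed to at most 3.62 CPM and blood cell markers to at most 7.32 CPM in any library. Fibroblast and mesenchymal markers summed to 1483 to 2554 CPM, most of it from VIM, with condition means of 1035 to 1604 CPM. COL3A1 and DCN of that list reached at most 0.528 and 0.251 CPM in any library. Exposed 30-week replicate 2 stood apart from its group, with a correlation of 0.976 to 0.981 with the other exposed 30-week libraries (log2 CPM over genes), where those correlated at 0.991 with each other.

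Per length, CLDN11 was the most abundant of the 9 transcripts in every condition. CLDN11 is best known from myelin and from the Sertoli cell barrier of the testis. On the scale of CPM per kilobase of merged GENCODE exons, the 24 h controls had 29.7 for CLDN11, 15.3 for the scaffold gene TJP1, 7.88 for F11R and 5.58 for CLDN12. OCLN stood at 2.42, CGN at 1.00, CLDN1 at 0.686, CLDN7 at 0.419 and CLDN4 at 0.0332. In the cells exposed for 30 weeks, F11R at 14.4 had passed TJP1 at 8.75, and CLDN1 at 2.66 had passed CGN at 0.608. CLDN11 at 48.4 remained first, and CLDN7 stood at 0.0954 and CLDN4 at 0.0680. The merged GENCODE exons of CLDN4 cover 4699 bases, more than its whole RefSeq span (chr7:73830996-73832690, GRCh38). Its counts were made per Entrez gene, so its level per kilobase may be understated and its rank beside CLDN7 depends on the length used. CLDN1 and CLDN4 are widely expressed in airway epithelium, and CLDN4 and CLDN7 had so few reads here (2 to 19 and 2 to 31 counts a library) that counting error limits every statement on them.

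CLDN11 also made up most of the claudin transcripts. Over the 24 claudin genes in the table, its share of the summed CPM per kilobase was 70.2% in the 24 h controls, 82.1% in the 15-week controls and 86.1% in the 30-week controls. The exposed cells had 68.8%, 80.8% and 80.2% at the same times. CLDN12, which lacks the C-terminal motif by which most claudins bind ZO proteins, came second with 5.98% to 13.6%. The share of CLDN1 was 0.939% in the 30-week controls and 4.41% in the 30-week exposed cells, from condition means and without a test.

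**Figure D1:**
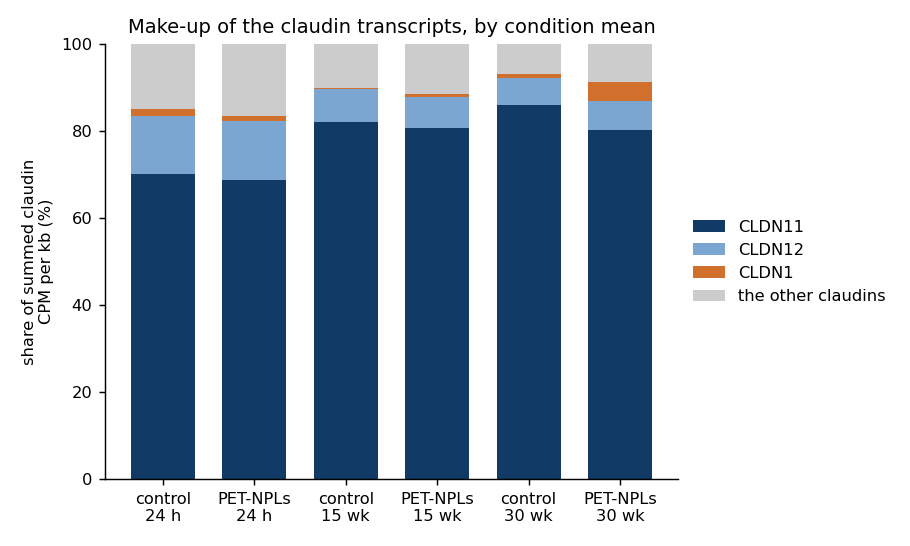
Share of the summed claudin level (CPM per kilobase of merged exons, vertical axis, percent) held by CLDN11, CLDN12, CLDN1 and the other claudins of the 24 in the table, from the mean of each condition. CLDN11 held 68.8% to 86.1% throughout, and CLDN1 was widest in the 30-week exposed cells at 4.41%.

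After 24 h and after 15 weeks of PET-NPLs, no expression change was called in any of the 9 genes. In edgeR's quasi-likelihood test, fitted on all 15 libraries with Benjamini-Hochberg adjustment over the 16740 genes, 0% of all genes passed an adjusted p of 0.05 at either time. At an unadjusted p under 0.05 there were 277 genes at 24 h and 823 at 15 weeks, none of them among the 9. DESeq2 called 0 genes at 24 h and 17 at 15 weeks. Fitted on the libraries of 1 time point alone, edgeR called 0 at 24 h and 304 at 15 weeks. The interval of the difference was narrow for the abundant genes and wide for the scarce ones. For TJP1, the 95% interval of the log2 fold change was -0.29 to 0.28 at 24 h and -0.08 to 0.49 at 15 weeks, and for F11R it was -0.16 to 0.40 and -0.44 to 0.13. For OCLN it was -0.37 to 0.22 and -0.16 to 0.42. For CLDN1 it ran from -1.40 to 0.02 at 24 h and from -0.12 to 1.44 at 15 weeks, and for CLDN4 from -1.71 to 1.78 and from -2.40 to 0.70, so that differences of several fold in CLDN4 were not detectable at this depth.

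After 30 weeks, CLDN1, F11R and OCLN were higher in the exposed cells than in the controls. In this comparison, 23.7% of all genes passed the test, 12% higher and 11.7% lower, and 3 of the 9 genes passed, all of them higher. The exposed and control libraries did not overlap for these 3 genes, as for 27.3% of all genes. The median log2 fold change of the 9 genes was 0.07, beside 0.01 over all genes tested.

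CLDN1 showed the widest difference of the 9. Its 3 controls at 30 weeks had 1.42, 2.96 and 2.54 CPM, and the 4 exposed libraries had 11.5, 9.53, 8.90 and 8.70 CPM. Every exposed library was thus above every control, and also above all 8 libraries of the earlier times, which reached at most 2.84 CPM. The fitted difference was 4.15-fold (log2 2.05 ± 0.26, SE, adjusted p = 2.99e-05, edgeR). CLDN1 (chr3:190305707-190322446, GRCh38) lies inside the span of CLDN16, which had 0 or 1 counts in any library.

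F11R had 29.9, 31.4 and 31.8 CPM in the 30-week controls and 72.6, 69.1, 70.9 and 79.4 CPM in the exposed libraries. The other 8 libraries lay in between, from 35.4 to 47.9 CPM, so the exposed group stood above all of them and the control group below. The difference was 2.35-fold (log2 1.23 ± 0.11, SE, adjusted p = 8.74e-07, edgeR). Its adjusted p was the smallest among the 9 genes, at chr1:160995211-161021152 (GRCh38).

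OCLN had 16.7, 18.8 and 18.1 CPM in the 30-week controls and 37.4, 30.4, 34.3 and 38.3 CPM in the exposed libraries. Here the exposed libraries overlapped those of 15 weeks (28.1 to 34.3 CPM). All controls lay below the earlier range of 24.6 to 34.3 CPM. Exposed replicate 2 lay inside it, replicate 3 at its upper end, and replicates 1 and 4 above it. The difference was 1.96-fold (log2 0.97 ± 0.12, SE, adjusted p = 1.79e-05, edgeR). OCLN (chr5:69492547-69558104, GRCh38) has a copy, OCLNP1, with 12 to 94 counts a library beside 389 to 1088 for OCLN, and reads shared between copies could have been split.

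Leaving out exposed replicate 2, the library that stood apart, the log2 fold changes at 30 weeks were 2.06 for CLDN1, 1.26 for F11R and 1.04 for OCLN. Without control replicate 1, the library with the highest share of small noncoding RNAs, they were 1.82, 1.21 and 0.94. The 3 calls held in each of their 16 alternative analyses. Skeletal muscle markers also differed between the 30-week groups: 6 of the 7 tested were lower in the exposed cells, beside 11.7% of all genes. Among them, MYOD1, the master regulator of myogenesis, had 65.8 to 106 CPM in controls and 0.313 to 0.761 CPM in exposed libraries. The part of the muscle markers and of the small noncoding RNAs in the junction gene differences was not tested.

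The other 6 genes did not pass at 30 weeks. The scaffolds were close to equal, TJP1 with 84.3 to 104 CPM in controls and 90.8 to 113 CPM in exposed libraries, and CGN with 3.74 to 4.90 and 2.45 to 5.69 CPM. Their log2 intervals were -0.15 to 0.29 and -0.51 to 0.34. CLDN12 had an interval of -0.31 to 0.35, and its highest value among the exposed libraries, 37.8 CPM against 22.6 to 25.8 CPM in the others, was in replicate 2, as was the lowest value of CGN. CLDN11 had 213 to 314 CPM in controls and 177 to 227 CPM in exposed libraries, overlapping, with a log2 fold change of -0.27 ± 0.14 (SE, adjusted p = 0.198, edgeR). For CLDN4 and CLDN7 the intervals of -1.67 to 0.36 and -0.67 to 1.15 left room for differences in either direction.

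**Figure D2:**
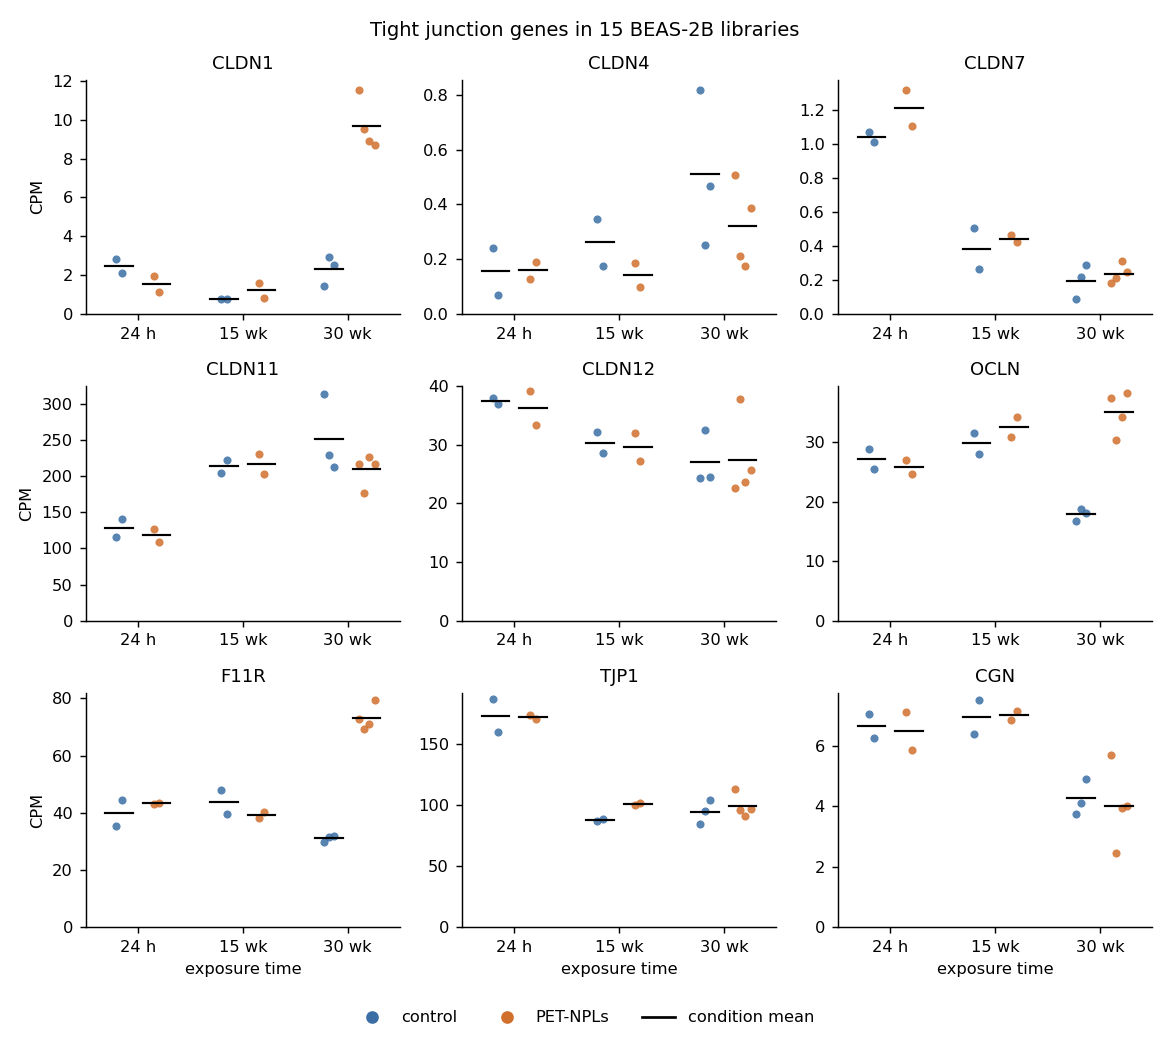
CPM of each of the 9 genes (vertical axes, each from 0) by exposure time, with 1 point per library, controls in blue, PET-NPLs in orange and bars at the condition mean. CLDN1, OCLN and F11R separate at 30 weeks, where all 4 exposed libraries lie above all 3 controls, while TJP1 drops between 24 h and 15 weeks in both arms, to 0.506 (controls) and 0.585 (PET-NPLs) of its 24 h level.

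Tight junction genes also differed between time points within each arm. Between 24 h and 15 weeks, within batch 1, 4 of the 9 genes passed in controls (24.9% of all genes, 12.7% higher and 12.2% lower) and 3 of 9 in exposed cells (26%, of which 13.5% higher and 12.5% lower). TJP1 fell in both arms. Its controls had 186 and 159 CPM at 24 h and 86.5 and 88.3 CPM at 15 weeks, and its exposed libraries had 173 and 170 CPM and then 99.9 and 101 CPM. No library of a later time reached those of 24 h. The log2 fold changes were -0.98 ± 0.15 in controls (SE, adjusted p = 0.000141) and -0.77 ± 0.15 in exposed cells (adjusted p = 0.001, both edgeR).

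CLDN11 rose over the same interval. From 116 and 141 CPM in the 24 h controls it reached 205 and 222 CPM, and from 127 and 109 CPM in the exposed cells it reached 231 and 203 CPM, so the times did not overlap. The log2 fold changes were 0.74 ± 0.19 (SE, adjusted p = 0.00969) and 0.88 ± 0.19 (adjusted p = 0.00291, both edgeR). In controls, this call was lost without control 24 h replicate 1 or without control 15-week replicate 2 (adjusted p up to 0.116 over 13 alternatives).

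CLDN7 fell from 29 to 31 counts a library at 24 h to 9 to 16 counts at 15 weeks. The fitted log2 fold changes were -1.43 ± 0.46 in controls (SE, adjusted p = 0.0303) and -1.44 ± 0.45 in exposed cells (adjusted p = 0.0273, both edgeR). Each call was lost in 4 of 12 alternatives. In exposed cells these were the 4 that left out 1 of the compared libraries. In controls they were no filter and leaving out either 24 h control or control 15-week replicate 2. The gene (chr17:7259903-7263213, GRCh38) overlaps ELP5, which lies on the opposite strand with 889 to 2125 counts, and the strand setting of the counting was not given in the sources used here. CLDN1 fell in the controls, from 2.84 and 2.13 CPM to 0.790 and 0.767 CPM (log2 -1.67 ± 0.38, SE, adjusted p = 0.00412, edgeR). In the exposed cells it went from 1.96 and 1.14 CPM to 1.61 and 0.844 CPM, which overlap (log2 -0.32 ± 0.38, adjusted p = 0.591, edgeR), and the difference between these 2 changes was not tested.

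From 15 to 30 weeks, 50.3% of all genes passed in controls (25.6% higher, 24.6% lower) and 46% in exposed cells (23.3% higher, 22.7% lower), with batch and time inseparable. Among the 9 genes, 4 passed in controls and 3 in exposed cells, shares below those of all genes. CLDN1 was higher at 30 weeks in both arms, by 2.98-fold in controls (log2 1.57 ± 0.36, SE, adjusted p = 0.00182) and by 7.82-fold in exposed cells (log2 2.97 ± 0.33, adjusted p = 8.87e-06, both edgeR). F11R and OCLN were lower in the 30-week controls, by -0.49 ± 0.13 and -0.74 ± 0.14 on the log2 scale (SE, adjusted p = 0.00515 and 0.000356, edgeR). In the exposed cells, F11R was higher by 0.89 ± 0.13 (adjusted p = 6.77e-05, edgeR) and OCLN did not pass (0.11 ± 0.13, adjusted p = 0.518). CGN was lower in both arms, by -0.70 ± 0.25 and -0.80 ± 0.23 (adjusted p = 0.0283 and 0.0112, edgeR), with 5 of 14 and 2 of 15 alternatives losing the call. The F11R call in controls was lost without control 15-week replicate 1 (adjusted p = 0.117).

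**Figure D3:**
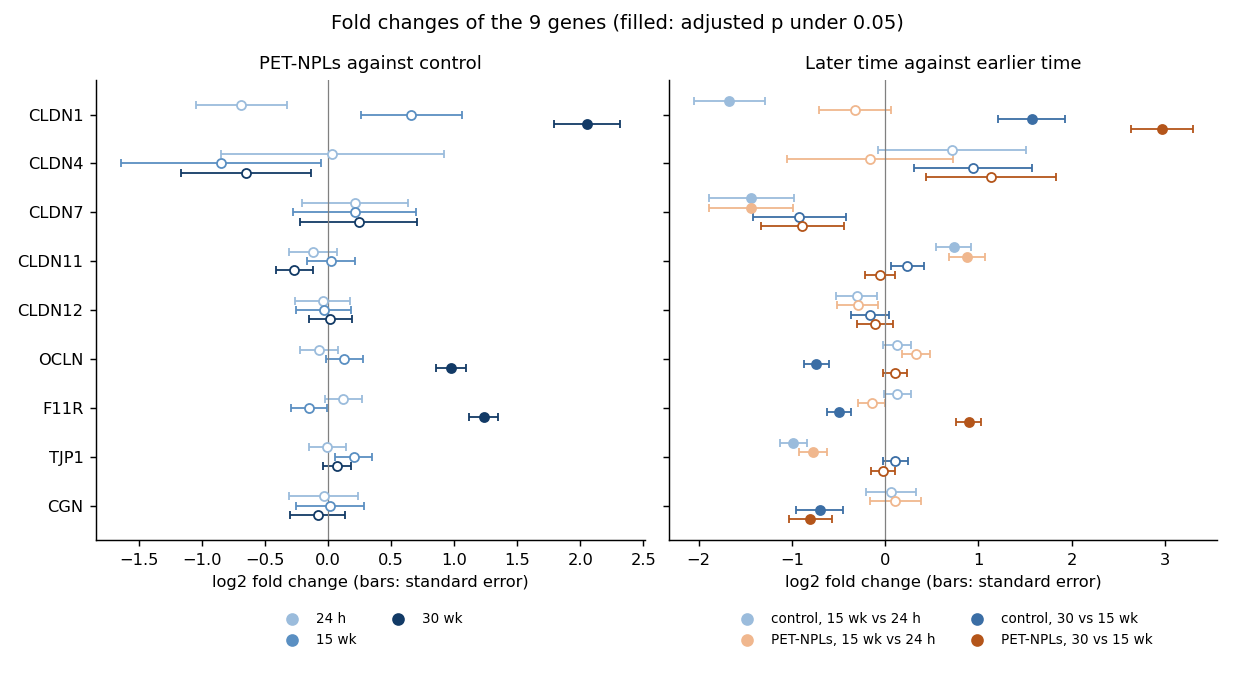
Log2 fold changes of the 9 genes (horizontal axes, bars of 1 standard error) for PET-NPLs against control at each time (left) and for later against earlier times in each arm (right). Filled points passed an adjusted p of 0.05 in edgeR, which on the left are CLDN1, OCLN and F11R at 30 weeks with log2 2.05, 0.97 and 1.23.

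The exposure effect itself was compared between 15 and 30 weeks as an interaction, in which the time and batch differences common to both arms cancel. Over all genes, 4.74% passed (2.66% higher, 2.08% lower), and 2 of the 9 genes did. The effect on F11R was larger at 30 weeks by 1.39 ± 0.18 on the log2 scale (SE, adjusted p = 0.000222, edgeR), a call that held in all 20 alternatives. For OCLN the increase was 0.84 ± 0.19 (adjusted p = 0.0146, edgeR). This call was lost in 4 of 20 alternatives, among them leaving out control 15-week replicate 1 (adjusted p = 0.109), exposed 15-week replicate 1 (0.112) or exposed 15-week replicate 2 (0.0535). CLDN1 had as large a fitted increase as F11R, 1.39, but a standard error of 0.48 and an adjusted p of 0.135, and did not pass. Its 15-week libraries had only 25 to 52 counts each.

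The 9 genes differed in how much their condition means varied. The range of mean log2 CPM over the 6 conditions was 3.51 for CLDN1, 2.34 for CLDN7, 1.37 for CLDN4 and 1.23 for F11R. It was 0.48 for CLDN12, the steadiest of the 9. For the 3 genes with the widest range and a condition mean of at least 1 CPM, the genes with the most similar profile were sought over all tested genes, by the root mean square difference of mean-centred log2 CPM over the 6 conditions. For CLDN1 these were CDH10, a cadherin, ICAM1, an adhesion receptor for leukocytes, and HOXC6, a homeobox gene, with differences of 0.37, 0.41 and 0.41. For F11R they were C16orf74, ST6GALNAC2 and PITPNM3 with 0.085, 0.092 and 0.099, and for CLDN7 they were DENND2D, KCNMA1-AS2 and RRN3P1 with 0.040, 0.12 and 0.12.

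Other genes of the junction showed changes in both directions at 30 weeks. None of the 8 tested among 19 other claudins passed, and 0 had an unadjusted p under 0.05 (edgeR). Their median log2 fold change was 0.15, beside 0.01 over all genes. Of 8 tested other membrane proteins, 3 were higher and 1 lower, beside 12% and 11.7% of all genes, with a list median of 0.47. CXADR, the coxsackievirus and adenovirus receptor, was higher, with 13.03 to 17.8 CPM in controls and 22.5 to 35.7 CPM in exposed libraries (log2 0.85), beside 22.1 to 46.1 CPM at the earlier times. JAM2, a relative of F11R, was lower, with 3.01 to 4.87 against 0.398 to 0.739 CPM (log2 -3.03), and ILDR2 (log2 1.27) and JAM3 (log2 0.62) were higher. The JAM3 call was lost in 4 of 16 alternatives. Before 30 weeks, JAM2 had at most 0.584 CPM, so the 30-week controls stood apart for this gene.

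Of 16 tested scaffold and signalling genes of the junction, 4 were higher and 4 lower, beside 12% and 11.7% of all genes, and the list median was -0.05. AMOT, an angiomotin that binds polarity and Hippo pathway proteins, showed the largest difference, with 5.16 to 5.48 CPM in controls and 15.7 to 31.2 CPM in exposed libraries (log2 2.25 ± 0.21, SE, adjusted p = 1.16e-06, edgeR). Its relative AMOTL1 was higher as well (log2 1.05), while CGNL1, the paralogue of CGN, was lower (log2 -0.57). The CGNL1 call was lost in 4 of 16 alternatives, that of PATJ in 5 and that of ARHGEF18 in 3. In the polarity complexes, which position the junction, 4 of 12 tested genes were higher and 2 lower, beside the same 12% and 11.7% of all genes (list median 0.17). Of these calls, that of LLGL2 was lost in 5 of 16 alternatives, that of PARD6B in 6 and that of DLG1 in 5. PRKCZ, the atypical protein kinase C of the PAR complex, had 0.989 to 1.34 CPM in the 30-week controls and 10.5 to 13.8 CPM in exposed libraries (log2 3.33 ± 0.18, SE, adjusted p = 2.66e-09, edgeR). At earlier times it had 8.60 to 21.2 CPM, and again the 30-week controls were the group outside that range.

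**Figure D4:**
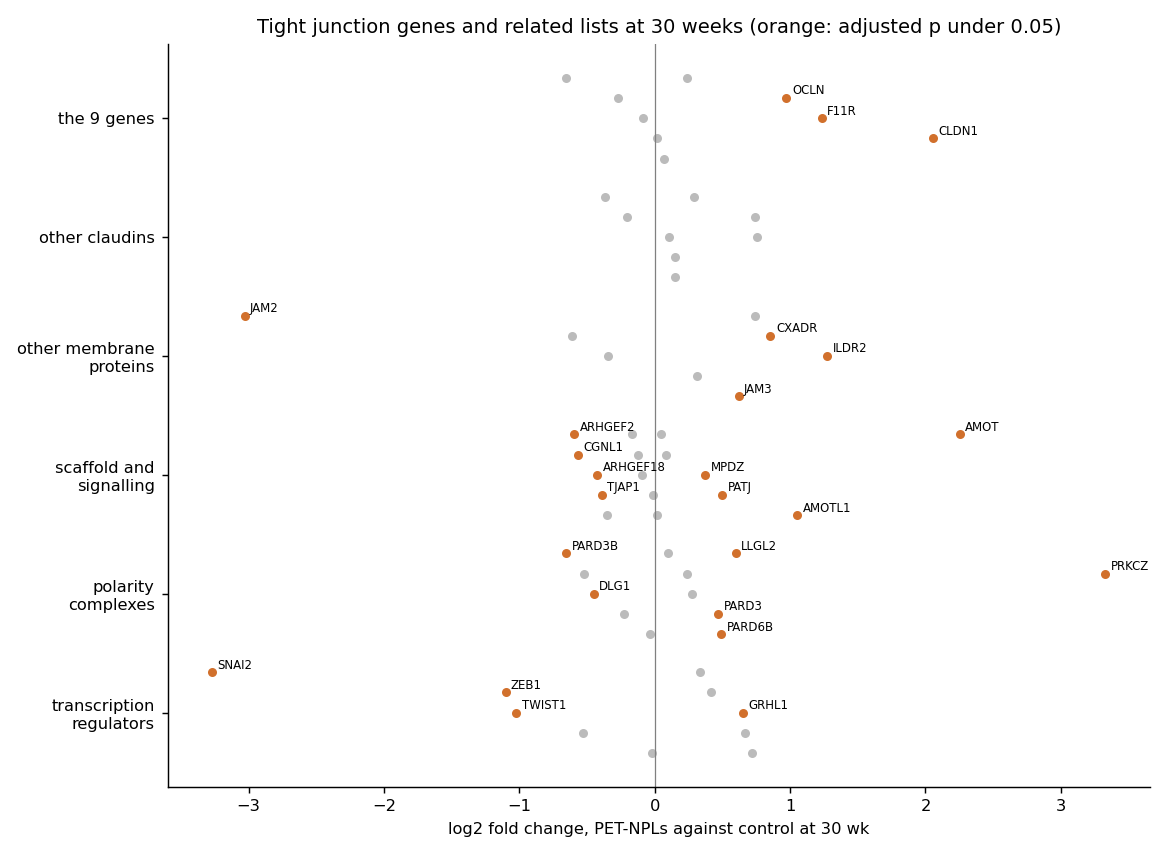
Log2 fold change between PET-NPLs and control at 30 weeks (horizontal axis) for the 9 genes and 5 related lists, 1 point per tested gene, with orange points past an adjusted p of 0.05 in edgeR and named. In the lists other than the other claudins, the named genes lie on both sides of 0, from SNAI2 at -3.27 to PRKCZ at 3.33, whereas the 3 named among the 9 genes are all on the right.

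Among 10 tested regulators known to act on epithelial junction genes, 3 were lower and 1 higher at 30 weeks, beside 11.7% and 12% of all genes (list median 0.16). SNAI2 and ZEB1, repressors that bind E-box motifs, were lower. SNAI2 had 24.4 to 27.1 CPM in controls and 2.10 to 3.43 CPM in exposed libraries (log2 -3.27 ± 0.18, SE, adjusted p = 3.41e-09, edgeR), and ZEB1 had 27.8 to 30.1 and 12.1 to 14.4 CPM (log2 -1.10 ± 0.10, adjusted p = 7.38e-07). The related E-box repressors did not pass. ZEB2 had 27.4 to 38.3 CPM in controls and 39.8 to 45.7 CPM in exposed libraries, without overlap (log2 0.34 ± 0.12, adjusted p = 0.056, edgeR), and SNAI1 had 0.253 to 0.731 and 0.631 to 1.48 CPM (log2 0.72 ± 0.40, adjusted p = 0.212). TWIST1 was lower (log2 -1.02) and GRHL1, a grainyhead-like activator, was higher (log2 0.65, a call lost in 3 of 16 alternatives). The keratin KRT8 had 127 to 187 CPM in the 30-week controls and 541 to 710 CPM in the exposed libraries (log2 2.04). It had 450 to 646 CPM at the earlier times, so all 30-week controls lay below the earlier range, and exposed replicate 3 lay above it. Of 6 tested fibroblast and mesenchymal markers, 2 were higher and 1 lower at 30 weeks, beside 12% and 11.7% of all genes. CDH2 had 75.4 to 86.1 CPM in controls and 165 to 194 CPM in exposed libraries. COL1A1 had 21.5 to 89.0 and 5.88 to 10.1 CPM. SNAI2 had 13.9 to 17.8 CPM at 24 h and 3.63 to 5.66 CPM at 15 weeks over both arms, so the 30-week controls had the highest SNAI2 of all conditions. No part of these regulators in the junction gene differences was tested.

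**Figure D5:**
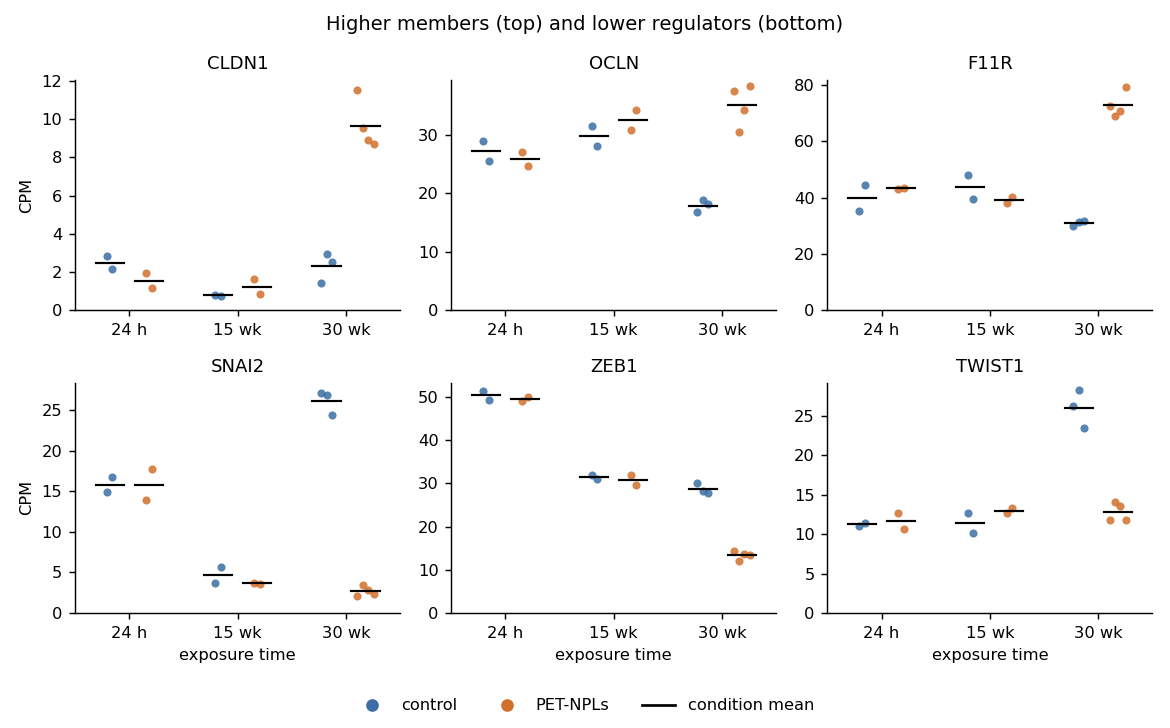
CPM per library (vertical axes, each from 0) of CLDN1, OCLN and F11R (top) and of SNAI2, ZEB1 and TWIST1 (bottom) by exposure time, with controls in blue, PET-NPLs in orange and bars at the condition mean. At 30 weeks the top genes were higher and the bottom genes lower in exposed cells. SNAI2 was highest in the 30-week controls (24.4 to 27.1 CPM).

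Because SNAI2 and ZEB1 bind the E-box CAGGTG, which reads CACCTG on the other strand, promoter windows of 300 bases, from 250 before to 50 after each RefSeq start site (GRCh38.p14), were searched for it on both strands. Windows were given for 8 of the 9 genes, 14 windows in all, and not for F11R. The E-box was present in 4 of the 14 windows, of CLDN7, OCLN (2) and TJP1, beside 20.6% of all 35116 windows. CLDN1, CLDN4, CLDN11, CLDN12 and CGN had no match in these windows. The grainyhead-like site AACCGGTT was in none of the 14, and in 0.134% of all windows. One CLDN7 window held 5 matches, a number reached by 0.094% of all windows. The stretches of 30 bases centred on matches that did not overlap one another and fitted inside their window are shown 5′ to 3′ on the strand of the gene, with the E-box in capitals.
CLDN7, chr17:7262456-7262485, minus strand: cctgtccgcccgCACCTGctggctcacctc
CLDN7, chr17:7262596-7262625, minus strand: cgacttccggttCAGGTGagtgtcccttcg
CLDN7, chr17:7262635-7262664, minus strand: tttcttcctcctCACCTGggcaaggagggg
OCLN, chr5:69492502-69492531, plus strand: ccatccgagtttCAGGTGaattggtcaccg
OCLN, chr5:69492645-69492674, plus strand: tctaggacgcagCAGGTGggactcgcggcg
TJP1, chr15:29969120-29969149, minus strand: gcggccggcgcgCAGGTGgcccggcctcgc

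In GENCODE v44, the CLDN7 and OCLN stretches overlap untranslated exon sequence of their own gene. The OCLN stretches also overlap a gene on the opposite strand, and the TJP1 stretch lies in no annotated gene. A match in these letters is a description of the sequence and was not tested for binding.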

How the data were processed

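RNA from 15 BEAS-2B libraries was sequenced as stranded, ribosome-depleted total RNA. Per the study's methods, the authors used Rfastp to trim and filter reads and Rsubread (featureCounts in the labels) for mapping on GRCh38 and counting. The deposited values are raw counts per Entrez gene, unnormalised. How multi-mapped reads and strand were counted is not given in the sources used here. All 28395 rows were used, 27745 of which had a symbol in the RefSeq table of GRCh38.p14.

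Here, counts were filtered with filterByExpr (16740 genes), scaled by TMM and tested with edgeR 4.0.16 (quasi-likelihood, 1 mean per condition, all 15 libraries) in R 4.3.3. Adjustment was Benjamini-Hochberg over all tested genes, with a threshold of 0.05. Log2 CPM used a prior count of 2. Intervals are fold change ± 95% normal limits of the standard error. The pipeline was tested on simulated data. Depth was 23143202 to 31459990 counts, so that 3 counts is the limit a count of 0 allows, for counting error only.

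The 9 genes and all gene lists were chosen with earlier results of these data known. All 9 genes are named. From each other list, up to 6 genes with the largest passing change at 30 weeks, then the largest others, could be named, besides TJP3, MARVELD2, CXADR, JAM2, JAM3, CDH1, EPCAM, SNAI1, SNAI2, ZEB1 and ZEB2. A further gene of these lists is not reported here. Alternatives were DESeq2 1.42.0, limma-voom (limma 3.58.1) without and with sva 3.50.0 (2 surrogate variables), only the time points compared, upper-quartile scaling, no filter, a filter of 10 counts in each library, removal of 6 small noncoding RNAs, a replicate block and each replicate left out.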

Additional observations from a re-analysis of the deposited data

Results flagged for a closer look

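Of 42 genes examined, 3 genes of the related lists had 1 exposed 30-week library far from the other 3, with a gap to the nearest library that is large for the whole range of the group by Dixon's 95% criterion. As a part of the range, the gap was 0.935 for JAM2, 0.946 for LLGL2 and 0.9754 for PARD6B, each highest in replicate 4. JAM2 had 0.398, 0.421 and 0.417 CPM in the others and 0.739 CPM there. Chance gives such a gap in about 1 of 20 groups, so 3 of 42 is near the number chance gives, and none of the 9 junction genes showed one.

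The exposure effect differed between 15 and 30 weeks, by the interaction in edgeR, for 2 of the 9 junction genes, beside 4.74% of all genes. It was larger by 0.84 on the log2 scale for OCLN and by 1.39 for F11R. In the related lists it was also higher for AMOT (1.41), AMOTL1 (0.90) and PRKCZ (3.67), and for the keratin KRT8 (1.93). It was lower for JAM2 (-3.00), SNAI2 (-2.92), ZEB1 (-1.07), TWIST1 (-1.20) and the muscle regulator MYOD1 (-6.11). Over the whole lists, 1 of 8 tested other membrane proteins, 2 of 16 scaffold and signalling genes and 1 of 12 polarity genes passed. So did 3 of 10 regulators, 2 of 6 epithelial markers and 3 of 7 skeletal muscle markers, and 0 of 8 other claudins. The related genes named here were mostly taken by their difference at 30 weeks, which is itself a term of the interaction.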

How the results depend on the processing

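The 9 genes gave 19 calls, tested under 278 alternatives in all, of which 256 kept the call, 22 lost it and 0 reversed it. CLDN1, OCLN and F11R at 30 weeks kept theirs in all 16, with log2 fold changes of 1.82 to 2.27, 0.92 to 1.04 and 1.19 to 1.26. With single libraries left out, the number of the 9 genes called ranged from 2 to 4 for control 15 weeks against 24 h (2 without control 24 h replicate 1 or control 15-week replicate 2, where CLDN7 and CLDN11 were lost), from 2 to 4 for control 30 against 15 weeks (2 without control 15-week replicate 1, where F11R and CGN were lost), and from 1 to 2 for the growth of the exposure effect. For exposed 15 weeks against 24 h, CLDN7 was lost with any 1 of the compared libraries left out. The cause was not tested. Whether the replicate numbers pair the samples could not be decided. Correlations of same-numbered deviations from the group means were -0.0601 at 24 h, 0.029 at 15 weeks and -0.118, 0.303 and 0.0981 at 30 weeks. Differently numbered ones ran from -0.481 to 0.359 at 30 weeks. With 2 libraries a group, the earlier correlations of same and different numbers are equal with opposite sign. With a replicate block, 1 gene (F11R) was called for the growth of the exposure effect, OCLN having an adjusted p of 0.0532, and the other calls of the 9 genes were kept. Over all genes, the 3961 calls at 30 weeks became 2370 with only the 30-week libraries and 2491 without control 30-week replicate 1. At 15 weeks, 304 genes were called with only the 15-week libraries, 17 by DESeq2, 14 with surrogate variables and 10 with no filter. From 24 h to 15 weeks, 4174 calls in controls became 6841 with only those time points, 6549 with surrogate variables and down to 2462 with a library left out, and 4349 in exposed cells became 7031, 6564 and 2526. From 15 to 30 weeks in exposed cells, 7697 became 5069 without exposed 15-week replicate 2. The 794 calls of the interaction became 2245 with surrogate variables, 393 to 483 without any 1 of the 15-week libraries and 1519 without exposed 30-week replicate 2.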
